A study of Drosophila melanogaster with 8 samples.

Results

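The Halloween genes encode the enzymes that make ecdysone, the steroid that drives moulting and cuticle formation in insects. The set described here was fixed by name and held 6 members, neverland (nvd), spook (spo), phantom (phm), disembodied (dib), shadow (sad) and shade (shd), of 15182 fly genes in the table. RNA was sequenced from Drosophila melanogaster embryos at early stage 14 that carried an EGFP reporter under E10, an enhancer of the trichome regulator ovo (shavenbaby), so that both groups share this transgene. The GFP-positive group was sorted by its fluorescence. Per the sample labels and protocol, the all-cells group was 50000 cells drawn from the parent scatter gate of the same sort. On that reading it held GFP-positive cells too. The series design text instead calls these samples GFP-negative, and the sample labels were followed here. The 4 sorts were independent, and each gave 1 library per group, so that n is 4 throughout. GFP marks the cells in which the enhancer fragment drove the reporter, which need not be every cell that expresses ovo.

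Ecdysone is built from cholesterol. Nvd, a Rieske-type oxygenase, takes the first step, and Spo acts in the uncharacterised middle of the pathway; Phm and Dib then hydroxylate the sterol side chain, Sad hydroxylates the ring to give ecdysone, and Shd converts ecdysone into the active hormone in target tissues. All of them except Nvd are cytochrome P450 enzymes. Loss of a P450 member leaves embryos with little or no patterned cuticle, which gave the group its name. In the larva nvd, phm, dib and sad are known mainly from the prothoracic gland.

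In these embryos shd was higher in GFP-positive cells than in all cells, by 1.00 log2 units (SE 0.30, limma adjusted p = 0.0173, n = 4 each), and its mean was 2.27 times the all-cell mean. dib was 1.22 log2 units higher (SE 0.47, limma adjusted p = 0.0495, n = 4 each), with overlapping groups, and its call was lost in 10 of 19 alternative ways of processing. spo and phm, with overlapping groups, also had the higher value in GFP-positive cells in each of the 4 sorts. So did 15.4% of genes tested and 13.1% of fly genes above 0 in any library. spo passed the test only with the libraries paired by sort, and phm did not pass it. Neither nvd, the first enzyme, nor sad, which completes ecdysone, passed the test. Cyp18a1, the P450 that inactivates the hormone, was 2.39 log2 units higher, more than any of the 6.

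The libraries were shallow for genes at these levels. From steps in the low values they were estimated to hold 6710000 to 10100000 fragments in GFP-positive cells and 10300000 to 12700000 in all cells. Values are FPKM, fragments per kilobase of transcript scaled to the mapped total, which correct for length and can be compared between genes. ovo stood at 320, 239, 219 and 268 FPKM in GFP-positive cells of sorts 1 to 4, against 56.0, 32.1, 46.7 and 31.7 FPKM in all cells. Genes with 1 FPKM or more in at least 4 of 8 libraries were tested with limma on log2(FPKM + 1), 10943 in all, with Benjamini-Hochberg adjustment and a threshold of 0.05. This scale understates the change of low genes. 1265 genes were called higher in GFP-positive cells, 11.6% of those tested, and 4233 were called lower, 38.7%. With TMM-like scaling, a trimmed mean of log ratios, the counts were 2118 higher (19.4%) and 2299 lower (21.1%). Over all genes tested the log2 fold change had a median of -0.47. In bulk RNA, more cells of a type and more RNA per cell cannot be told apart. Of the 6 members 5 passed the filter; phm reached 1 FPKM in only 2 libraries. Of those tested, 2 (dib and shd) were called higher and 0 lower, a count too small to set against the 11.6%.

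**Figure D1:**
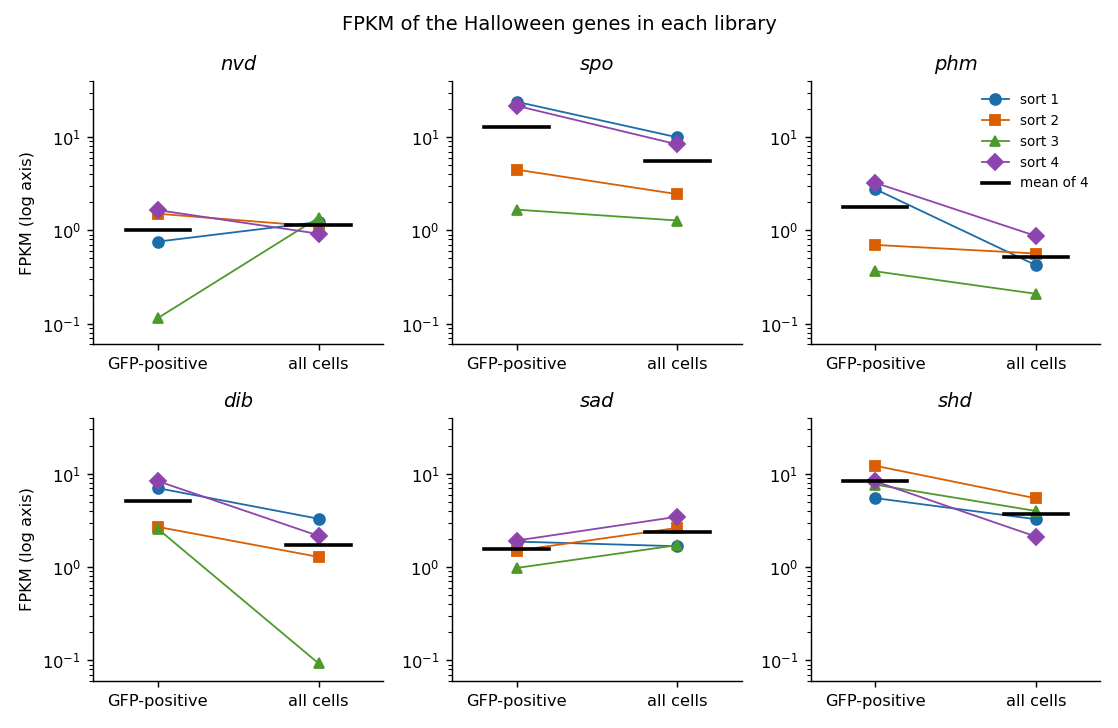
FPKM of the 6 Halloween genes (log axis) in GFP-positive and all-cell libraries; each symbol is a library, lines join the libraries of a sort, and black bars are means of 4. spo, phm, dib and shd lie higher in GFP-positive cells in every sort, and only for shd do the groups not overlap.

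shd encodes the monooxygenase that converts ecdysone into the active hormone, and unlike the other members it is known mainly from tissues that respond to the hormone. The gene lies on chromosome arm 3L from 14607558 to 14615305 (build dm3). It stood at 5.49, 12.2, 7.65 and 8.29 FPKM in GFP-positive cells of sorts 1 to 4, against 3.26, 5.45, 3.99 and 2.12 FPKM in all cells. The groups did not overlap, although the lowest GFP-positive library was only just above the highest all-cell library; 10.2% of genes tested lay wholly above in this way. Means were 8.41 ± 2.80 FPKM in GFP-positive cells and 3.71 ± 1.4 FPKM in all cells (SD, n = 4 each). The log2 fold change was 1.00 ± 0.30 (SE; adjusted p = 0.0173 by limma), 1.47 above the median of all genes tested. An exact two-sided permutation of the 8 libraries, not paired by sort, gave p = 0.029. That is as small as an unpaired test of 4 against 4 libraries can give. Without GFP-positive library 2 the adjusted p was 0.0556, and without all-cell library 4 it was 0.0535, with a log2 fold change of 0.82 in both. Scaling by the summed spike-ins brought the log2 fold change to 0.21 (limma adjusted p = 0.747). That scaling set the median of all genes tested at -1.26, so shd stayed above the median.

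shd is the only member listed with more than 1 isoform. shd-RB stood at 2.55, 9.35, 6.54 and 5.18 FPKM in GFP-positive cells and at 1.49, 4.84, 3.99 and 1.91 FPKM in all cells. Its log2 fold change was 0.76 ± 0.42 (SE; adjusted p = 0.188 by limma over all isoforms). shd-RC stood at 2.94, 2.86, 1.11 and 3.10 FPKM in GFP-positive cells. In all cells it stood at 1.77, 0.612, 0.000327 and 0.212 FPKM, so that the values of sort 1 bring the groups to overlap. Its log2 fold change was 1.15 ± 0.40 (SE; adjusted p = 0.0454 by limma), where 9.28% of isoforms tested were called higher. shd-RB made up 46.4, 76.6, 85.5 and 62.5% of the gene's FPKM in GFP-positive cells, against 45.6, 88.8, 100 and 90.0% in all cells. The share of shd-RC was therefore larger in GFP-positive cells in sorts 2, 3 and 4 and slightly smaller in sort 1. Isoform values at this depth are estimates from few reads, and the difference between the isoforms was not tested. Leaving out any 1 of 6 libraries took the adjusted p of shd-RC past the threshold, up to 0.114 without all-cell library 4.

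dib encodes the mitochondrial enzyme that hydroxylates the side chain next after Phm, and lies on 3L from 4062304 to 4064302. It stood at 7.03, 2.70, 2.57 and 8.36 FPKM in GFP-positive cells, against 3.30, 1.28, 0.0925 and 2.16 FPKM in all cells. The GFP-positive library was the higher in 4 of 4 sorts, as it was for 15.4% of genes tested, yet the groups overlapped. Means were 5.16 ± 2.97 FPKM in GFP-positive cells and 1.71 ± 1.36 FPKM in all cells (SD, n = 4 each). The log2 fold change was 1.22 ± 0.47 (SE; adjusted p = 0.0495 by limma), which is only just under the threshold. The exact two-sided permutation test gave p = 0.114. All-cell library 3 rests on about 2 fragments, under a floor of 3 fragments, and without it the log2 fold change was 0.84 (adjusted p = 0.120). The call was also lost without GFP-positive library 1 (adjusted p = 0.116) or 4 (0.123) and without all-cell library 2 (0.0971) or 4 (0.0601). It was lost too with a pseudocount of 0.1 (0.0736), no filter (0.0687), a filter on the mean (0.0518), array weights (0.0886) and spike-in scaling (0.332). In the fit over isoforms dib-RA, the only isoform listed for dib, had a limma adjusted p of 0.0868, and 0.0229 with the sort as a block. Over the 19 alternatives the adjusted p of dib ran from 0.00247 to 0.332. Pairing the libraries of each sort in the same model left the fold change as it was and lowered the adjusted p to 0.00473, where 13.2% of genes tested were called higher. The dib locus overlaps wit, a BMP receptor gene, by 157 bases. wit was also higher in GFP-positive cells (log2 fold change 0.83 ± 0.22 SE, adjusted p = 0.00852 by limma), and whether reads were counted by strand is not given, so reads from the shared stretch cannot be told apart.

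spo, which acts in the middle of the pathway, was the most abundant member by mean FPKM in both groups and the most variable. It lies on 3L from 5583183 to 5585677. It stood at 24.0, 4.48, 1.67 and 21.7 FPKM in GFP-positive cells of sorts 1 to 4, against 9.96, 2.44, 1.27 and 8.36 FPKM in all cells. Sorts 1 and 4 were high and sorts 2 and 3 low in both groups, and the groups overlapped, though the GFP-positive values of sorts 1 and 4 lay above every all-cell value. Means were 13.0 ± 11.5 FPKM in GFP-positive cells and 5.51 ± 4.29 FPKM in all cells (SD, n = 4 each). The log2 fold change was 0.84 ± 0.74 (SE; adjusted p = 0.364 by limma; exact two-sided permutation p = 0.400). Within each sort GFP-positive cells had the higher value, by 1.19, 0.67, 0.23 and 1.28 log2 units. Of genes tested, 15.4% were likewise higher in 4 of 4 sorts. With the sort as a block the same fold change had an SE of 0.24 and a limma adjusted p of 0.0177. That fit called 13.2% of genes tested higher. The call of spo thus depends on pairing the libraries. In the fit over isoforms spo-RA, the only isoform listed for spo, had a limma adjusted p of 0.0506 with the block and was not called. Without GFP-positive library 1 the unpaired log2 fold change was 0.38, without GFP-positive library 4 it was 0.43, and without all-cell library 3 it was 0.43. Without GFP-positive library 3 it was 1.46.

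The spread of spo between sorts stood out among genes of similar level. Its SD of log2(FPKM + 1) over the 4 libraries was 1.58 in GFP-positive cells and 1.10 in all cells. Among 6771 genes with a mean of 1 to 15 FPKM, 99.4% had a smaller SD in GFP-positive cells and 98.8% in all cells, where the median SDs were 0.45 and 0.39. Other properties of the libraries ran alongside spo. Genes at 1 FPKM or more numbered 10763, 9581, 9580 and 10343 in GFP-positive libraries of sorts 1 to 4, and 11384, 10691, 10156 and 11443 in all-cell libraries. The estimated fragments numbered 6970000, 8730000, 10100000 and 6710000 in GFP-positive libraries, and 10300000, 12700000, 12500000 and 10900000 in all-cell libraries. So the sorts with more spo also had more genes detected and fewer fragments, and the part these played in the spo values was not tested. CG10592, which lies 163 bases from spo on dm3, varied in the same order, with 9.61, 1.67, 0.924 and 8.39 FPKM in GFP-positive cells and 3.30, 0.289, 0.0414 and 1.95 FPKM in all cells. Its log2 fold change was 1.23 ± 0.63 (SE; adjusted p = 0.124 by limma), and with the sort as a block the limma adjusted p was 0.00289. The gene l(3)psg2 overlaps spo by 308 bases and showed no such spread, with 16.6 to 21.3 FPKM in GFP-positive cells and 20.5 to 27.2 FPKM in all cells.

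phm encodes the microsomal enzyme that hydroxylates the side chain before Dib. It lies on chromosome X from 18579802 to 18582257 and is named phtm in a later annotation. It stood at 2.77, 0.698, 0.363 and 3.24 FPKM in GFP-positive cells, against 0.421, 0.564, 0.208 and 0.868 FPKM in all cells. Like spo, phm was highest in GFP-positive cells of sorts 1 and 4 and lowest in sort 3 of both groups. Its libraries rest on about 7 to 43 fragments in GFP-positive cells and 5 to 19 in all cells. The difference of mean log2(FPKM + 1) was 0.72 with overlapping groups (exact two-sided permutation p = 0.2). A fit without the filter gave a limma adjusted p of 0.147, and 0.0640 with the sort as a block. GFP-positive cells had the higher value in 4 of 4 sorts, as did 13.1% of fly genes above 0 in any library. The difference was 0.46 without GFP-positive library 4 and 1.00 without GFP-positive library 3.

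nvd and sad, unlike the other members, did not have the higher value in GFP-positive cells in every sort. Differences between members were not tested. nvd, which encodes the enzyme of the first step, spans 24317967 to 24394755 on 3L. It stood at 0.757, 1.51, 0.114 and 1.65 FPKM in GFP-positive cells, against 1.23, 1.10, 1.37 and 0.920 FPKM in all cells. GFP-positive cells had the higher value in sorts 2 and 4 and the lower one in sorts 1 and 3, and the all-cell values lay within the GFP-positive range. The log2 fold change was -0.18 ± 0.32 (SE; adjusted p = 0.667 by limma), and GFP-positive library 3 rests on about 2 fragments. Without that library it was 0.08. sad, which lies on 3R from 7702957 to 7705476, stood at 1.88, 1.50, 0.977 and 1.92 FPKM in GFP-positive cells, against 1.67, 2.63, 1.72 and 3.47 FPKM in all cells. Its GFP-positive library was the lower in sorts 2, 3 and 4, and the groups overlapped. The log2 fold change was -0.38 ± 0.28 (SE; adjusted p = 0.290 by limma; exact two-sided permutation p = 0.2), which lies 0.09 above the median of all genes tested. Both signs depend on the scaling: quantile normalization gave 0.31 for nvd and 0.12 for sad, and TMM-like scaling gave 0.045 for nvd. The sad locus overlaps CG6962 by 53 bases, a gene that was lower in GFP-positive cells (log2 fold change -1.11 ± 0.33 SE, adjusted p = 0.0157 by limma).

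**Figure D2:**
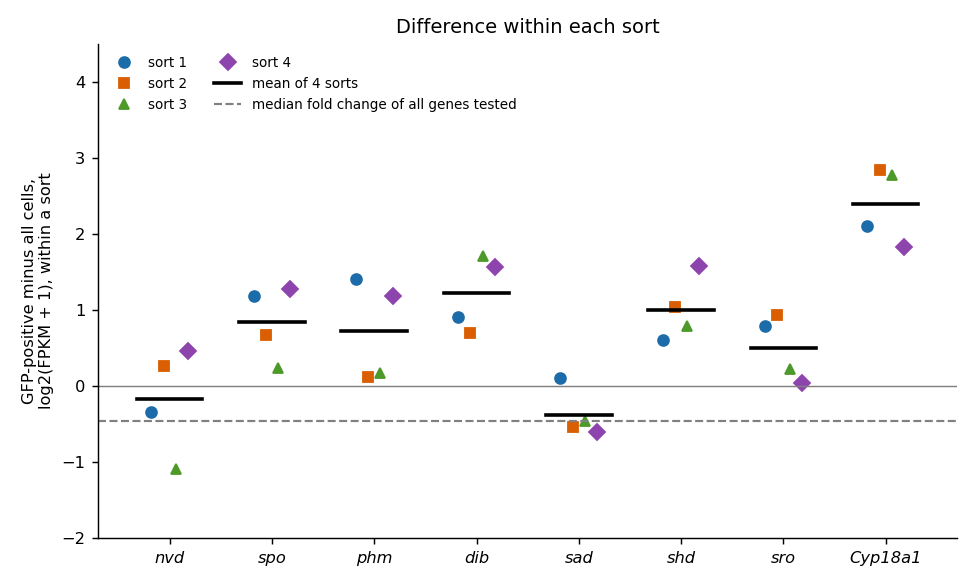
Difference of log2(FPKM + 1), GFP-positive minus all cells, within each sort (symbols), with the mean of 4 sorts (bars) and the median fold change of all genes tested (dashed). spo, phm, dib, shd, sro and Cyp18a1 lie above 0 in all 4 sorts, while nvd and sad straddle it.

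In GFP-positive cells the order of mean levels was spo, shd, dib, phm, sad and nvd. The ranges of every pair of neighbours in that order overlapped. In all cells the order was spo, shd, sad, dib, nvd and phm, and the ranges of all neighbours overlapped except those of nvd (0.920 to 1.37 FPKM) and phm (0.208 to 0.868 FPKM). dib stood above sad in every GFP-positive library, by 3.75, 1.80, 2.63 and 4.35 times in sorts 1 to 4. In all cells dib stood at 1.97, 0.488, 0.0539 and 0.623 times the FPKM of sad. sad stood at 0.342, 0.123, 0.128 and 0.232 times the FPKM of shd in GFP-positive cells, and at 0.513, 0.483, 0.430 and 1.64 times in all cells. shd thus exceeded sad in every library but all-cell library 4. Of the 15 ratios between members, 12 overlapped between the groups, that of dib to sad among them. The other 3 did not (sad to shd, nvd to shd and phm to sad). The share among other pairs of genes was not computed, so this count cannot be judged. All members were modest in level: their percentile among fly genes ran from 21.9 to 83.5 in GFP-positive cells and from 17.9 to 61.6 in all cells, with nvd of sort 3 and spo of sort 1 at the ends in GFP-positive cells.

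The authors' deposited table holds a Cuffdiff comparison for each sort, 1 library against 1. It calls phm higher in GFP-positive cells in sort 1 (log2 fold change 2.72, q = 0.0135), where the table calls 4.09% of genes higher. In the authors' deposited table dib is called higher in sort 3 (log2 fold change 4.80, q = 0.00705; 4.60% of genes), the sort in which its all-cell value rests on about 2 fragments. The authors' deposited table calls shd higher in sort 4 (log2 fold change 1.97, q = 0.0170; 2.94% of genes). No member was called in more than 1 sort, none was called in sort 2 (4.68% of genes higher), and spo, nvd and sad were called in none.

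The genes whose pattern over the 8 libraries was most like each tested member, by Pearson correlation of log2(FPKM + 1), are given as a description. For spo they were CG8216 (0.99), CG10899 (0.99) and CG15040 (0.98). For dib they were Pdi (0.99), which encodes a protein disulfide isomerase, CG5509 (0.98) and CG5802 (0.98). For shd they were scyl (0.96), CG30015 (0.94) and CG6954 (0.94). For nvd they were nAcRbeta-21C (0.98), CG13921 (0.94) and mab-21 (0.93), and for sad CG33797 (0.96), Bro (0.93) and CG7384 (0.93). Each is the best of 10942 genes compared over 8 libraries, which share depth and sort, and no gene was named for more than 1 member.

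Other synthesis genes did not share a pattern. sro, a short-chain dehydrogenase of the same middle steps as Spo, stood at 7.20, 7.63, 3.45 and 6.53 FPKM in GFP-positive cells, against 3.74, 3.53, 2.83 and 6.31 FPKM in all cells. The GFP-positive library was above the all-cell library in 4 of 4 sorts, as it was for 15.4% of genes tested, though sort 4 was close. The log2 fold change of sro was 0.50 (SE 0.30, limma adjusted p = 0.193). spok, the paralog that takes the place of spo in the larval gland, was listed at 0 in GFP-positive libraries 1, 3 and 4 and in all-cell library 3, with 0.739 FPKM in the remaining GFP-positive library and 0.740, 0.381 and 0.526 FPKM in all-cell libraries 1, 2 and 4. Reads that map to both spo and spok could be split between them, which makes low spok values uncertain. Cyp6t3, another P450 of the prothoracic gland, averaged 1.78 FPKM in GFP-positive cells and 4.40 FPKM in all cells (log2 fold change -0.95 ± 0.44 SE, adjusted p = 0.0973 by limma). With the sort as a block Cyp6t3 was called lower (limma adjusted p = 0.0211). Of sro and Cyp6t3, 1 was called higher with TMM-like scaling and 1 with quantile normalization, beside 19.4% and 18.9% of all genes. Spike-in scaling and array weights each gave 1 lower, beside 53.0% and 45.1% of all genes.

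The P450 gene family, to which 5 members belong, moved in both directions. The table lists 86 P450 genes, of which 49 were tested. Of these 8 were called higher, dib and shd among them, and 6 lower, beside 11.6% and 38.7% of all genes tested. Without the Halloween members 45 were tested, with 6 called higher and 6 lower (13.3% each). Quantile normalization gave the whole family 15 higher and 3 lower, beside 2063 and 2517 of 10943 genes tested. Spike-in scaling gave it 1 and 14, beside 2.9% and 53.0% of all genes. On log2(FPKM + 1) as reported the family had a median of -0.04, and -0.15 without the members, against -0.47 for all genes tested. Cyp18a1, whose enzyme inactivates ecdysteroids, showed the largest rise of the family. It stood at 41.7, 27.2, 17.4 and 18.0 FPKM in GFP-positive cells, against 8.93, 2.95, 1.67 and 4.36 FPKM in all cells, without overlap (log2 fold change 2.39 ± 0.40 SE, adjusted p = 6.3e-04 by limma). The authors' deposited table calls Cyp18a1 higher in all 4 sorts. The gene lies 312 bases from phm on dm3.

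Cyp301a1, known for a role in the adult cuticle, rose by 1.86 log2 units in GFP-positive cells (a mean of 69.9 FPKM, against 21.0 FPKM in all cells, limma adjusted p = 0.00193). Cyp4e1 rose by 1.85, Cyp313b1 by 1.46 and Cyp313a4 by 1.22, with limma adjusted p of 0.00228, 0.0202 and 0.0377. Cyp310a1 fell by 2.42 log2 units, at 4.76 FPKM in GFP-positive cells against 30.5 FPKM in all cells (limma adjusted p = 5.8e-05). Cyp6g1, known for insecticide resistance, fell by 1.3, Cyp4ae1 by 1.26, Cyp28d1 by 0.99, Cyp28d2 by 0.99 and Cyp4aa1 by 0.98. By size of rise dib ranked 6 and shd 7 of the 8 family members called higher.

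**Figure D3:**
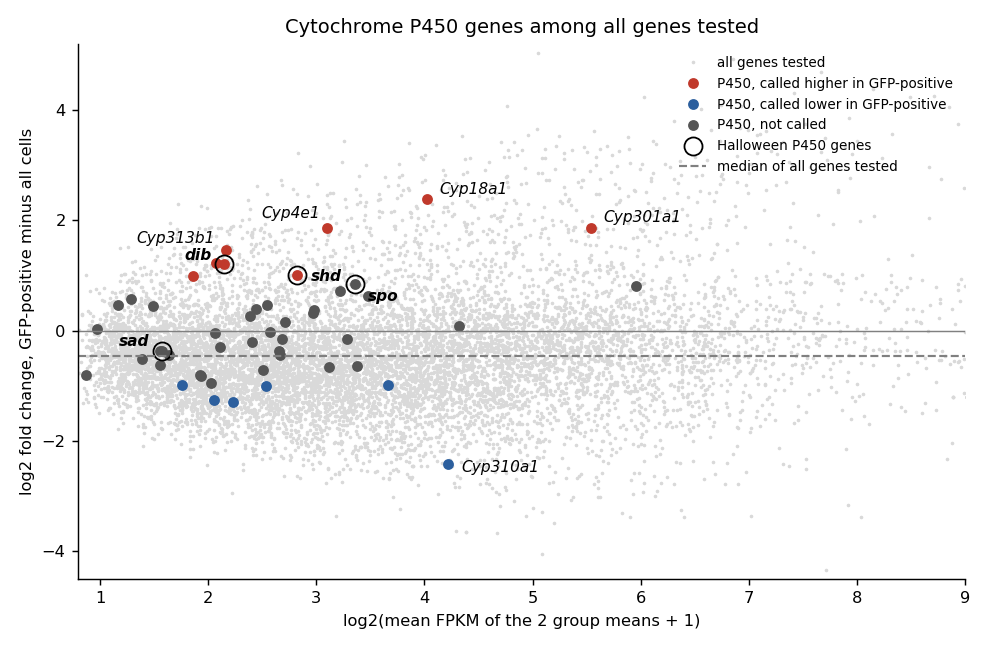
log2 fold change (GFP-positive minus all cells) against log2 of the mean FPKM + 1 for all genes tested (grey), with the P450 genes coloured by call and the 4 Halloween P450 genes that were tested circled. Cyp18a1 is the highest P450 at 2.39 and Cyp310a1 the lowest at -2.42, with shd and dib near 1.

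Electron donors of P450 enzymes had a median log2 fold change of 0.13, against -0.47 for all genes tested. Of 5 tested, too few to set against the 11.6% and 38.7% of all genes, 1 was called higher and 0 lower. That gene, Cyt-b5, averaged 162 FPKM in GFP-positive cells and 122 FPKM in all cells (log2 fold change 0.40 ± 0.15 SE, adjusted p = 0.0403 by limma). Cpr, the reductase that serves microsomal P450s, had a log2 fold change of -0.01, and dare, the adrenodoxin reductase that serves the mitochondrial ones, of 0.06. Neither passed the test. TMM-like scaling set the median of these donors at 0.59 and that of all genes at -0.08, with 2 donors called higher. Quantile normalization gave 0 donors higher and 0 lower.

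Among 19 regulators of synthesis tested, 6 were called higher (31.6%) and 5 lower (26.3%), beside 11.6% and 38.7% of all genes tested. Their median log2 fold change was 0.11. ftz-f1, a nuclear receptor needed for dib and phm expression in the gland, stood at 66.1, 121, 57.1 and 21.0 FPKM in GFP-positive cells, against 16.4, 15.7, 9.33 and 18.4 FPKM in all cells. The groups did not overlap (log2 fold change 1.87 ± 0.42 SE, adjusted p = 0.00371 by limma), though in sort 4 the libraries were close. vvl, a POU factor needed in the gland and, like kni of the same list, also a tracheal marker, rose by 1.52 log2 units (limma adjusted p = 3.9e-05). br, a zinc-finger factor, averaged 8.38 FPKM in GFP-positive cells and 47.2 FPKM in all cells and fell by 2.43 (limma adjusted p = 0.00148), and Dsor1, the kinase MEK, fell by 1.33 (limma adjusted p = 0.00366). mld, a zinc-finger factor that activates nvd and spok in the gland, rose by 0.69 (limma adjusted p = 0.0014), while nvd itself did not pass the test; mld was named after its value was seen.

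Of 16 sterol supply genes tested 2 were called higher (12.5%) and 5 lower (31.3%), shares near the 11.6% and 38.7% of all genes tested. The list had a median of -0.13. Npc2b, a sterol-binding protein of the Niemann-Pick family, stood at 78.6, 63.2, 83.0 and 50.1 FPKM in GFP-positive cells, against 24.3, 18.1, 13.4 and 20.6 FPKM in all cells (log2 fold change 1.80 ± 0.21 SE, adjusted p = 7.3e-05 by limma). Its relatives Npc2g and Npc2h fell by 2.09 and 1.10. CG15828, a lipid transfer particle gene, showed the largest fall of the list at 3.36.

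Genes for removal and transport of the hormone included Cyp18a1. Of 13 tested 2 were called higher (15.4%) and 4 lower (30.8%), shares near the 11.6% and 38.7% of all genes tested, with a median of -0.22. With the sort as a block 4 were called higher (30.8%) and 5 lower (38.5%), beside 13.2% and 44.6% of all genes tested. Syt1, a synaptic vesicle gene that also acts in hormone release, fell by 2.33, Oatp26F by 1.56 and Oatp33Eb by 1.35. Syt1 is also a neuron marker, and all 7 neuron markers were lower in GFP-positive cells.

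Of the pathway lists the ecdysone response list held the largest rises. Of 21 tested 10 were called higher (47.6%) and 5 lower (23.8%), beside 11.6% and 38.7% of all genes tested, with a median of 0.58. ImpE1 stood at 430, 329, 364 and 331 FPKM in GFP-positive cells, against 61.6, 21.8, 38.9 and 37.0 FPKM in all cells (log2 fold change 3.24 ± 0.25 SE, adjusted p = 1.6e-05 by limma). ImpE2 averaged 1838 FPKM in GFP-positive cells and 241 FPKM in all cells, and ImpL1 averaged 1017 FPKM in GFP-positive cells and 169 FPKM in all cells, with log2 fold changes of 3.08 and 2.69. These 3 genes are known as ecdysone-inducible in imaginal discs. br belongs to the response list too and fell. In all, 7 genes stand in both the regulator and the response list. Together the 6 pathway lists held 69 genes tested. Of these 18 were called higher (26.1%) and 17 lower (24.6%). TMM-like scaling, which set the median of all genes at -0.08, gave 28 higher and 8 lower, beside 19.4% and 21.1% of all genes. Spike-in scaling, which set that median at -1.26, gave 4 and 22, beside 2.9% and 53.0% of all genes. The balance of directions thus depends on the scaling, which shifts all genes. The median of the pathway genes lay 0.52 above that of all genes as reported, 0.55 with TMM-like and 0.50 with spike-in scaling. This gap was 0.43 with quantile normalization and 0.38 with no filter. A pseudocount of 5 gave 0.30 and a pseudocount of 0.1 gave 0.63.

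**Figure D4:**
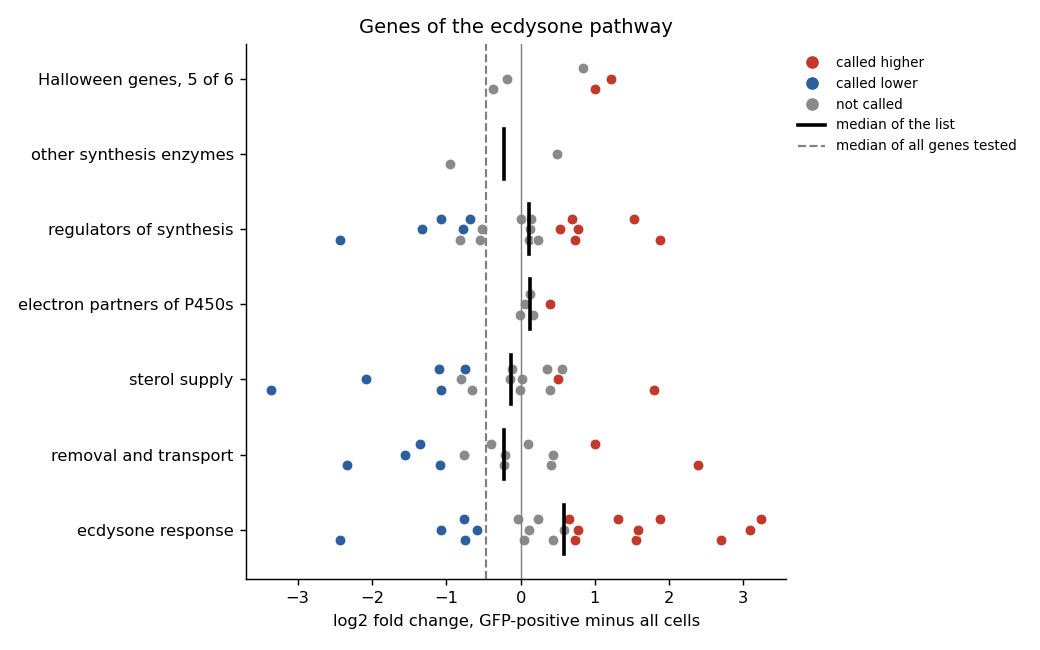
log2 fold change (GFP-positive minus all cells) of each tested gene of the Halloween set and of 6 pathway lists, coloured by call, with the median of each pathway list (black bars) and of all genes tested (dashed). The ecdysone response list reaches 3.24 (ImpE1), and CG15828 of sterol supply lies lowest at -3.36.

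Markers of cell types moved with the sort as well. Trichome and epidermal genes were called higher in 7 of 8 tested, with summed levels of 1457 to 1900 FPKM in GFP-positive cells and 187 to 336 FPKM in all cells. Amnioserosa markers were called higher in 7 of 7, with sums of 263 to 416 FPKM in GFP-positive cells and 126 to 144 FPKM in all cells. Tracheal markers were called higher in 5 of 6, with sums of 597 to 643 FPKM in GFP-positive cells and 331 to 458 FPKM in all cells. With spike-in scaling 7 of 8 trichome genes, 1 amnioserosa marker and 0 tracheal markers were called higher, beside 2.9% of all genes. Neuron markers fell in 7 of 7, with sums of 87.0 to 259 FPKM in GFP-positive cells and 523 to 1053 FPKM in all cells, and muscle markers fell in 7 of 7, with sums of 342 to 576 FPKM in GFP-positive cells and 1896 to 2926 FPKM in all cells. Fat body markers fell in 5 of 6, gut and tubule markers in 6 of 7 and hemocyte markers in 2 of 5. The hemocyte share, 40%, was near the 38.7% of all genes called lower. None of these markers was listed at 0 in any library. The part that these marker differences played in the dib and shd values was not tested.

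Of 7 genes of the endocrine glands tested, 0 were called higher and 3 lower, beside 11.6% and 38.7% of all genes tested. Their median log2 fold change was -0.45, close to the -0.47 of all genes tested. TMM-like scaling gave 1 higher and 2 lower, and quantile normalization 2 higher and 1 lower. The summed levels were 13.8 to 26.6 FPKM in GFP-positive cells and 41.7 to 109 FPKM in all cells. Without jhamt the other genes summed to 9.75 to 24.9 FPKM in GFP-positive cells and 8.85 to 26.9 FPKM in all cells, and these sums overlapped. jhamt, the juvenile hormone methyltransferase of the corpora allata, averaged 3.93 FPKM in GFP-positive cells and 46.0 FPKM in all cells (log2 fold change -3.18 ± 0.41 SE, adjusted p = 1.2e-04 by limma). Akh, the adipokinetic hormone of the corpora cardiaca, fell by 1.22 and amon, a prohormone convertase, by 1.10. gl, sro and tor had log2 fold changes of 0.62, 0.50 and 0.12, and none of these passed the test; gl and tor were named after their values were seen.

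**Figure D5:**
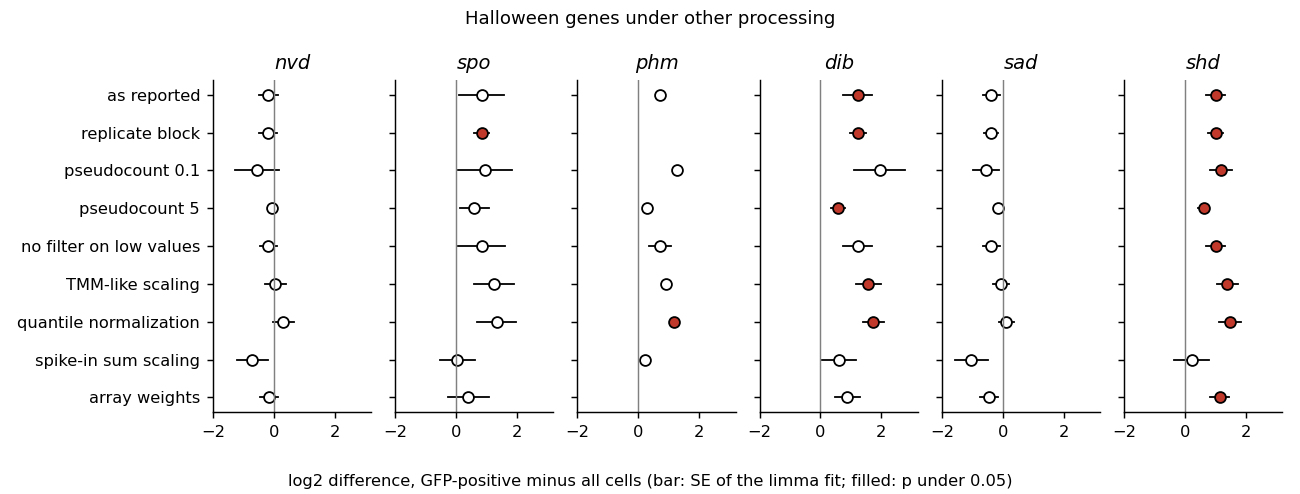
log2 difference of each Halloween gene, GFP-positive minus all cells, under 9 ways of processing. Bars are SEs of the limma fit, and filled symbols have p under 0.05. That p is the limma adjusted p, or for phm with the filter the unadjusted exact permutation p. shd is filled in every setting but spike-in scaling, spo only with the replicate block, and phm only after quantile normalization.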

How the data were processed

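Each of 4 sorts gave 1 GFP-positive and 1 all-cells library. Per the submitters' processing notes, TopHat 1.4.0, Cufflinks 1.3.0 and Cuffdiff 1.3.0 were used on build dm3; which annotation, settings and strandedness applied is not given in the sources used here. As deposited, values are in FPKM (per the file headers; the tables' names say RPKM), for 15182 fly genes, 25406 fly isoforms and 92 ERCC spike-ins, beside the authors' deposited log2 fold changes and q-values of each sort. Genes with 1 FPKM or more in at least 4 of 8 libraries were tested on log2(FPKM + 1) with limma 3.58.1 (mean-variance trend, R 4.3.3). The test was two-sided, with Benjamini-Hochberg adjustment over all of them. Single genes were also given an exact permutation test, which did not pair the libraries by sort. Depth was estimated from steps in low FPKM values of genes with 1 isoform, so fragment numbers are approximate and floors cover counting error only. The labels tie each library to a numbered sort, which pairs the samples. Deviations of paired libraries from their group means correlated by 0.44, 0.10, 0.41 and 0.17 in sorts 1 to 4. The highest correlation between groups with a library of another sort was 0.27, 0.15, 0.15 and 0.27, above the paired value in sorts 2 and 4. The sort entered as a block in an alternative fit. Other alternatives were the pseudocount, the filter, TMM-like, quantile and spike-in scaling, array weights, summed isoforms and leaving out each library; the block without the filter was added after seeing the data. The members and the gene lists were chosen with earlier results of these data known. Genes named are the members, the 3 most alike to each, up to 4 called genes of each list with the largest change (for a list with no called gene, its 2 genes of highest mean FPKM), and up to 6 P450 genes in each direction. Cpr, dare, spok, mld, gl, tor, ovo and the neighbouring or overlapping genes fall outside this rule and were chosen after their values were seen. A planned description of the members' sequences was not made, as no sequences were used here. Neighbouring and overlapping genes are named from the files' coordinates, given 1-based. EcI was not matched to a gene in the table and is not analysed here.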

Additional observations from a re-analysis of the deposited data

How the results depend on the processing

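Each result was recomputed with 1 choice changed at a time, and once with the replicate block and no filter together. TMM-like scaling gave a log2 fold change of 0.045 for nvd, and quantile normalization gave 0.31 for nvd and 0.12 for sad, each turning the sign. Quantile normalization gave phm a difference of 1.16 (unpaired exact permutation p = 0.029, unadjusted and as small as that test can give). phm is under the filter, so this p is not the limma adjusted p used for the other members. The call of dib was lost with a pseudocount of 0.1 (1.95), with no filter (1.22), with a filter on a mean FPKM of 0.5 (1.22), with array weights (0.89) and with spike-in scaling (0.60). shd lost its call with spike-in scaling (0.21), which set the median of all genes tested at -1.26. shd-RC lost it with the same 5 settings, at 2.43, 1.15, 1.15, 1.08 and 0.77, and shd-RB turned to -0.00068 with spike-in scaling. Within a sort the spike-ins do not share 1 ratio (30 of them ranged from -1.56 to 2.20 log2 units in sort 1), so scaling by their sum is given as a value only; the cause was not tested.

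With the sort as a replicate block, the log2 fold change of spo stayed at 0.84 and passed the test, also together with no filter (0.84, limma adjusted p = 0.0260). The block changed no other call of a member gene. P450 genes called lower numbered 9 with the block, where 4884 of all genes were. They numbered 13 with the block and no filter together, where 5023 of all genes were.

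Leaving out each library in turn gave log2 fold changes of 0.84 to 1.50 for dib, 0.82 to 1.17 for shd, 0.38 to 1.46 for spo, -0.34 to 0.079 for nvd, -0.48 to -0.23 for sad and 0.46 to 1.00 for phm. For the isoforms the ranges were 0.53 to 1.04 for shd-RB and 0.95 to 1.44 for shd-RC. P450 genes called numbered 4 to 9 higher and 4 to 8 lower, pathway genes 15 to 19 higher and 14 to 19 lower, and all genes 1050 to 1259 higher and 3400 to 4411 lower.

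Counts called higher were 2118 over all genes and 28 over the pathway lists with TMM-like scaling, 2063 over all genes and 15 among P450 genes with quantile normalization, and 309, 4 and 1 over all genes, pathway lists and P450 genes with spike-in scaling. Counts called lower were 2299 and 8 over all genes and pathway lists with TMM-like scaling, and 2517, 11 and 3 over all genes, pathway lists and P450 genes with quantile normalization. Among P450 genes 14 were called lower with spike-in scaling, 11 with no filter and 10 with array weights. Of all genes 53.0%, 31.7% and 45.1% were called lower in these settings. Depth limits nvd, phm and dib most, whose lowest libraries rest on about 2, 5 and 2 fragments.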
